A study of Mus musculus with 8 samples.

Results

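Galanin and other neuropeptide genes of the islet were examined in bulk RNA-seq of 8 mice. The 8 genes are Gal, Npy, Ucn3, Cck, Adcyap1, Vgf, Nmb and Cartpt, found by symbol among the 53012 Ensembl genes of the count table. Gal was selected on its measured difference between the groups, so its group values are a description and carry no test, whereas the other 7 were added as peptide genes of the same kind.

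Islets came from 4 βIgf1r mice, labelled CTRL, and 4 βIgf1rKD mice, labelled KD, all aged 17 months, with 1 library per mouse. Both groups were homozygous for an Igf1r allele whose exon 3 is floxed. The βIgf1rKD mice carried Ins1-CreERT2, whose recombinase becomes active in β-cells on binding tamoxifen, and were injected with tamoxifen at 0.075 mg/g body weight daily for 5 days. The βIgf1r mice lacked Cre and were given corn oil, and islets of either group were taken 7 days after the last injection. Cre, tamoxifen and the loss of Igf1r therefore cannot be told apart here, and the methods call the driver both a rat insulin promoter and Ins1-CreERT2. Igf1r itself, counted over the whole gene and not over exon 3 alone, differed by a log2 fold change of -0.08 (SE 0.11). An exact permutation test of its mean log2 CPM did not separate the groups (two-sided, p = 0.543). Both sexes were used without a label per mouse, and Xist, the X-inactivation RNA, lay at 270.1 to 410.9 CPM in 1 βIgf1r mouse (M151) and 3 βIgf1rKD mice (M145, M146 and M150) and at 1.22 to 6.71 CPM in the other 4. The Y chromosome genes Ddx3y, Eif2s3y, Kdm5d and Uty summed to 0.42 to 2.47 CPM in those with high Xist and to 94.55 to 124.7 CPM in the other 4. By these genes 1 βIgf1r mouse and 3 βIgf1rKD mice were female and the other 4 male, so sex and group are partly confounded. CPM stands for TMM-scaled counts per 1e6 counts, and it measures the RNA of all cells of the preparation, so that fewer cells of a type and less RNA per cell cannot be told apart. Libraries held 21634080 to 42391328 counts. Ins2 and Gcg, which mark β-cells and α-cells, were abundant in both groups, and 12 acinar enzyme genes took 1.92% to 13.7% of the counts in βIgf1r and 3.96% to 16.4% in βIgf1rKD mice.

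Neuropeptides are cut from larger precursors in the regulated secretory pathway, stored in dense-core granules and released to act on G-protein-coupled receptors nearby. Galanin is released in the pancreas by autonomic nerve endings and inhibits insulin secretion, and its gene is known in the pituitary as one induced by estrogen. Neuropeptide Y also restrains insulin release and comes from sympathetic nerves and from islet cells. Urocortin 3 is made by mature β-cells and acts on CRHR2 of δ-cells, which then secrete somatostatin. PACAP, the product of Adcyap1, and cholecystokinin enhance insulin secretion, neuromedin B belongs to the bombesin family, VGF is a granin-like precursor, and CART is a peptide of islet cells and nerves.

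The part of the Gal message that encodes the mature peptide is shown because it identifies what was counted. It was read from GENCODE M21 transcripts on GRCm38 and is the same in Gal-201 and Gal-202, where it covers codons 33 to 61 of the precursor. Capitals mark the basic codon pair at which the precursor is cut before the 29 codons of galanin, and the glycine codon and basic pair that follow them.
galanin coding stretch: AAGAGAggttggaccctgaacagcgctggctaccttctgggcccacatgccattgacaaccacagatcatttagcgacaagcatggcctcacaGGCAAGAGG

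Promoter windows of 300 bases, from 250 before to 50 after the RefSeq start on GRCm38.p6, were given for 7 of the 8 genes, all but Vgf. The window of Gal lies on the minus strand at chr19:3414495-3414794, and that of Cartpt on the minus strand at chr13:99900634-99900933. They are shown because Gal is the gene that differed most and Cartpt is the 1 gene with a full cAMP response element among the windows given. Capitals mark that element (TGACGTCA), its half-site (TGACG), and the estrogen response half-site (GGTCA), each searched on both strands; the half-site TGACG overlaps the full element.
Gal promoter window: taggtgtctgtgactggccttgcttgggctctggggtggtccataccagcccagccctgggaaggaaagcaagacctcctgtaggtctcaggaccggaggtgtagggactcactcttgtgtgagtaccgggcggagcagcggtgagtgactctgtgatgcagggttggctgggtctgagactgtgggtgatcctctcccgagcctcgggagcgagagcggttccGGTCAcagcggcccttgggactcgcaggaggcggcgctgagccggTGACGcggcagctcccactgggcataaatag
Cartpt promoter window: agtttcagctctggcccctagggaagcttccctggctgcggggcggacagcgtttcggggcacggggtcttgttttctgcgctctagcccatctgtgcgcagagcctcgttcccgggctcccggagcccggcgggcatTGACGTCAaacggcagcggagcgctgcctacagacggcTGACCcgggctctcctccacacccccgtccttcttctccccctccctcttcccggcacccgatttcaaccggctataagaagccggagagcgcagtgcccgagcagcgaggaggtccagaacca

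In the Gal window GGTCA begins at -26 and TGACG at 20, counted from the start, and the full estrogen response element, GGTCA and its reverse complement 3 bases apart, had no match. The comparison set was 27025 RefSeq promoters of the same length, the first listed for each gene, without those of chromosome 18. Among them 40.2% held GGTCA, 21% held TGACG and 0.0666% the full estrogen element. The full cAMP element, at -112 in Cartpt, was found in 1.88% of them. TGACG was also present in the windows of Cck and Adcyap1. These matches describe letters of the windows and not bound sites.

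To compare levels between genes, CPM was divided by the length of the longest transcript of each gene. Ucn3 was by far the most abundant, with a mean over the 8 mice of 413.8 CPM per kb. Npy followed at 12.2, Gal at 9.15 and Vgf at 3.32 CPM per kb, and the ranges of the neighbours overlapped: 4.85 to 24.9 for Npy, 1.55 to 20.97 for Gal and 2.31 to 5.30 for Vgf. Cartpt, at 0.872 CPM per kb with a range of 0.577 to 1.41, lay below Vgf in every mouse. Nmb, Cck and Adcyap1 had means of 0.532, 0.267 and 0.0411 CPM per kb. The place of Gal in this order depended on the group. In βIgf1r islets Gal stood at 3.96 CPM per kb beside Vgf at 3.45, and in βIgf1rKD islets at 14.3 CPM per kb beside Npy at 15.4.

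**Figure D1:**
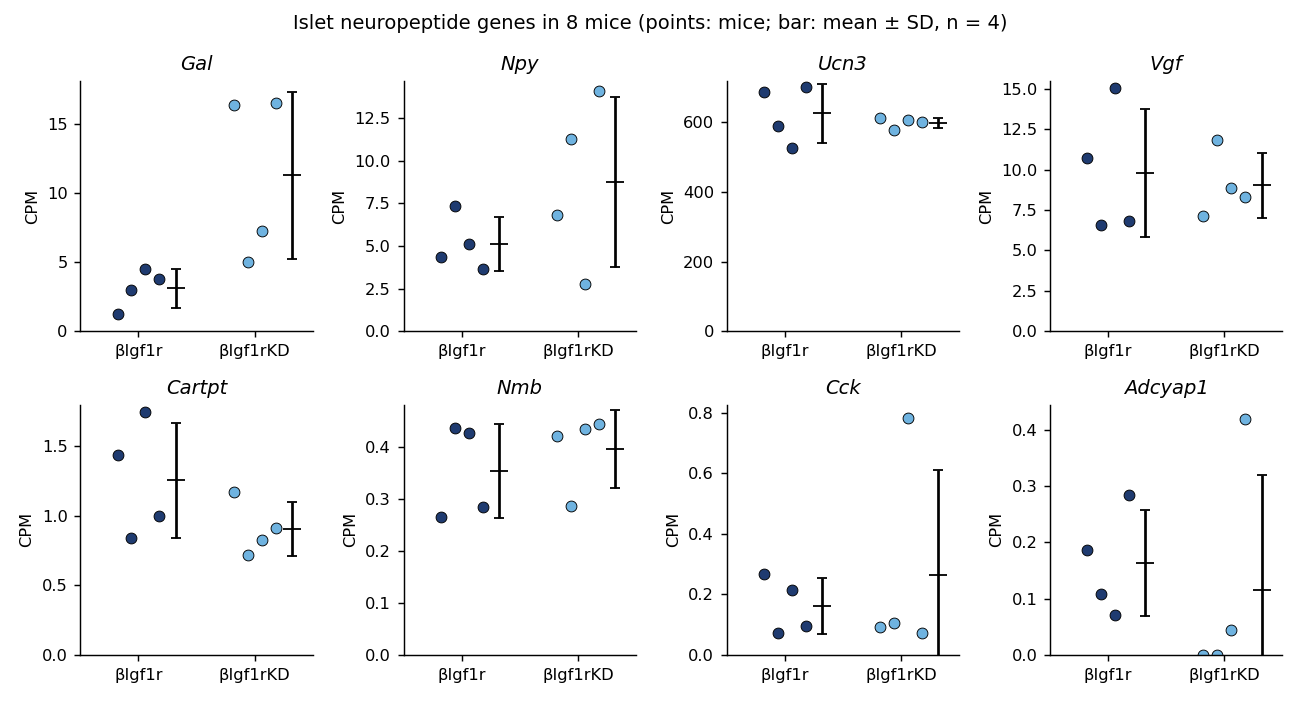
CPM of the 8 neuropeptide genes in each mouse, with a separate linear axis from 0 for each gene, βIgf1r mice in dark blue and βIgf1rKD mice in light blue, and a bar for the mean and SD of 4 mice (cut at 0 where the SD exceeds the mean). The 4 βIgf1rKD mice lie above the 4 βIgf1r mice for Gal, between 4.999 and 16.5 CPM against 1.22 to 4.49 CPM, and the groups overlap for the other 7 genes.

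Gal (ENSMUSG00000024907), on chromosome 19 from 3409915 to 3414544 of GRCm38, was higher in βIgf1rKD islets. The βIgf1r mice M148, M151, M152 and M153 were at 1.22, 2.98, 4.49 and 3.79 CPM, and the βIgf1rKD mice M145, M146, M149 and M150 at 16.4, 4.999, 7.27 and 16.5 CPM. Every βIgf1rKD mouse was above every βIgf1r mouse, although M146 exceeded M152 by little, and M145 and M150 stood well above the rest. The means were 3.12 ± 1.41 CPM (SD, n = 4) and 11.3 ± 6.04 CPM (SD, n = 4), a 3.62-fold ratio, and the log2 fold change was 1.87 (SE 0.47). The counts behind these values were 46 to 126 in βIgf1r and 140 to 670 in βIgf1rKD mice. Of all 15474 genes tested, 0.956% had 4 βIgf1rKD mice above 4 βIgf1r mice, and since this contrast chose Gal nothing is read from it.

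Several measures moved with Gal or differed between the groups, and their part in its difference was not tested. Deviations of Gal from its group mean, in log2 CPM, correlated with those of the acinar marker score at r = 0.75 over the 8 mice, which are points that share the libraries and their scaling. With the acinar score as a covariate the log2 fold change was 1.36. Among the 4 mice with high Xist, the 1 βIgf1r mouse was at 2.98 CPM and the 3 βIgf1rKD mice at 4.999 to 16.5 CPM. Among the others the 3 βIgf1r mice were at 1.22 to 4.49 and the 1 βIgf1rKD mouse at 7.27 CPM. The groups do not overlap in Gal, so βIgf1rKD lies above βIgf1r in any such subset of mice. That order was fixed beforehand and is no support. With Xist as a covariate the log2 fold change was 1.71, and with Xist and the acinar score together, an alternative added after the data were seen, it was 0.55. Adjusting for the endothelial marker score gave 0.73, and that score was lower in the 4 βIgf1rKD mice than in any βIgf1r mouse, so it nearly repeats the group.

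**Figure D2:**
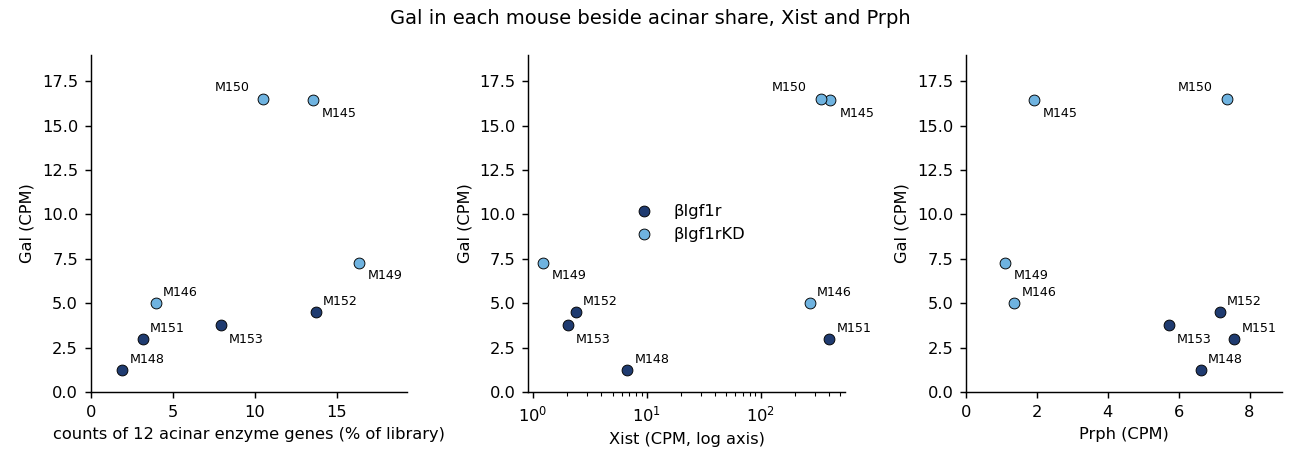
Gal in CPM on the vertical axis of each panel, against the share of counts in 12 acinar enzyme genes (percent), Xist (CPM, log axis) and the neuronal gene Prph (CPM), with 1 point per mouse. M145 and M150, both at over 16 CPM of Gal, differ in Prph, at 1.92 and 7.35 CPM.

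Since galanin is also a peptide of pancreatic nerves, genes of autonomic neurons were set beside Gal. Of 10 such genes 8 had enough counts, and the log2 fold changes of all 8 were negative, between -1.17 and -0.15, where 47.7% of all genes tested were below 0. Of the 8 genes 1, Hand2, had an unadjusted p under 0.05 by edgeR (adjusted p = 0.987), as did 4.12% of all genes. The summed level of the list was 97.2 to 106.2 CPM in βIgf1r and 71.6 to 99.5 CPM in βIgf1rKD mice. Th, at 42.3 to 76.6 CPM, and Elavl4, at 16.6 to 23.5 CPM, made up most of it. Which cells gave those 2 transcripts was not tested, so the sum does not measure nerve RNA. None of the 10 was at 0 in all mice, but Dbh had at most 3 counts in a mouse, and Phox2a had 0 counts in M149 and 1 in M145. Prph, an intermediate filament of peripheral neurons, was at 6.63, 7.57, 7.16 and 5.74 CPM in βIgf1r mice and at 1.92, 1.36, 1.09 and 7.35 CPM in βIgf1rKD mice M145, M146, M149 and M150. M145 and M150, the 2 mice highest in Gal, lay at 1.92 and 7.35 CPM of Prph, and the part of nerve RNA in the difference of Gal was not tested.

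The 5 genes most like Gal within the groups, among 10591 with a mean of at least 5 CPM, were Slc18b1, Meis1, Slc38a5, Tmem38b and Mrpl22. Their deviations from the group mean in log2 CPM correlated with those of Gal at r = 0.93, 0.92, 0.92, 0.92 and 0.89 over 8 mice. Slc38a5, an amino acid transporter, had the largest difference between groups among them, with a log2 fold change of 0.46 (SE 0.36). The 5 genes most opposed were AI837181, Pcdha2, Prr14, Rflnb and Rsph3a, at r of -0.97, -0.97, -0.97, -0.96 and -0.96. With 8 mice and 10591 genes such values describe these libraries only, and by Spearman correlation 1 of the 5 most alike was kept.

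Npy, on chromosome 6 from 49822710 to 49829507, was at 4.37, 7.35, 5.09 and 3.65 CPM in βIgf1r mice M148, M151, M152 and M153 and at 6.83, 11.3, 2.74 and 14.1 CPM in βIgf1rKD mice M145, M146, M149 and M150. The groups overlapped, with the lowest and the highest value both in βIgf1rKD mice. The means were 5.11 ± 1.60 CPM and 8.73 ± 4.99 CPM (SD, n = 4 each). The log2 fold change of 0.78 (SE 0.43, 95% interval -0.18 to 1.74) did not pass (edgeR adjusted p = 0.987, exact permutation p = 0.343, two-sided). Without βIgf1rKD mouse M149 the log2 fold change was 1.07, with an unadjusted p of 0.00504 and an adjusted p of 0.9999 by edgeR. M149 was the lowest in Npy, so leaving it out favors a difference and that p is no test. Without M149, 582 of 15661 genes were below 0.05 before adjustment and 0 after it. M149 was also the 1 βIgf1rKD mouse with low Xist. That fit thus set 3 βIgf1rKD mice, all with high Xist, against βIgf1r mice of which 1 had high Xist. The mice separated by their Xist level. The 4 mice with high Xist had 6.83 to 14.1 CPM of Npy and the other 4 had 2.74 to 5.09 CPM, without overlap. Of all genes tested, 2.62% were higher in these 4 mice without overlap and 1.40% lower. With Xist as a covariate the log2 fold change of Npy between the groups was 0.13. This split was noticed in the values and no test was made of it. The sexes are not labelled, but the split is the same as that by the Y chromosome genes, so it follows sex as read from RNA. Deviations of Npy also went with those of Sst, the δ-cell hormone gene, at r = 0.86 over 8 mice, and among the 4 mice with high Xist Sst ranged from 1906 to 3272 CPM against 1717 to 2771 CPM in the others.

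**Figure D3:**
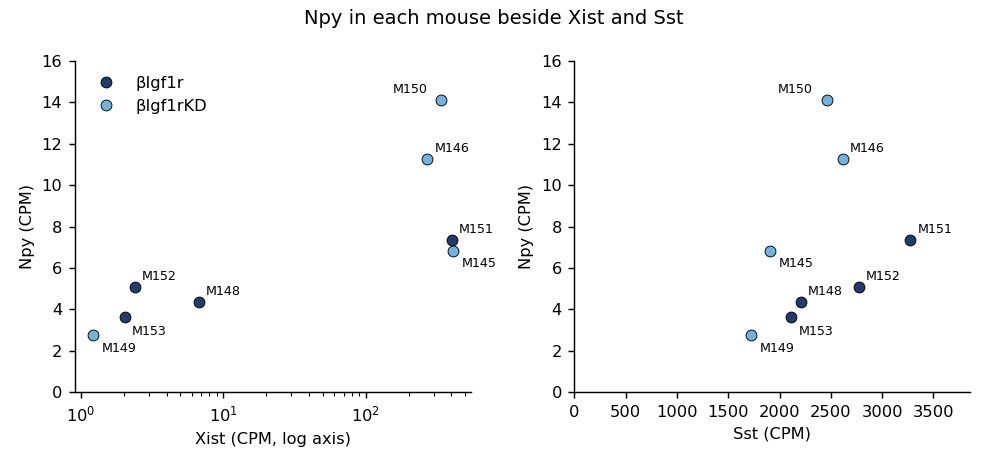
Npy in CPM on the vertical axis against Xist (CPM, log axis) and Sst (CPM), with 1 point per mouse. The 4 mice at high Xist, of which M151 is a βIgf1r mouse, have 6.83 to 14.1 CPM of Npy and lie above the other 4.

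Ucn3, a marker of mature β-cells on chromosome 13 from 3940688 to 3945349, hardly differed. Its levels were 686.3, 587.7, 524.9 and 701.1 CPM in βIgf1r and 611.0, 576.8, 604.8 and 600.0 CPM in βIgf1rKD mice. All 4 βIgf1rKD mice fell inside the range of the βIgf1r mice. Between the groups the log2 fold change was -0.06 (SE 0.13, 95% interval -0.35 to 0.22; edgeR adjusted p = 0.989, exact permutation p = 0.6, two-sided). Relative to 6 genes shared by endocrine cells (Isl1, Neurod1, Pax6, Insm1, Nkx2-2 and Rfx6) the difference was 0.02 on the log2 scale.

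Vgf, on chromosome 5 from 137026392 to 137033351, was at 10.7, 6.55, 15.02 and 6.83 CPM in βIgf1r and at 7.11, 11.9, 8.84 and 8.31 CPM in βIgf1rKD mice. All 4 βIgf1rKD mice lay inside the range of the βIgf1r mice, of which M152 was highest. For Vgf the log2 fold change was -0.12 (SE 0.27, 95% interval -0.73 to 0.49; edgeR adjusted p = 0.989, exact permutation p = 0.971, two-sided) and became 0.16 without M152.

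Cartpt, on chromosome 13 from 99898489 to 99901091, had low counts of 19 to 54. Levels were 1.44, 0.837, 1.74 and 0.995 CPM in βIgf1r and 1.17, 0.714, 0.827 and 0.913 CPM in βIgf1rKD mice. The highest pair of values belonged to βIgf1r mice M152 and M148 and the lowest to βIgf1rKD mice M146 and M149, with overlap between. The log2 fold change of -0.48 (SE 0.30; 95% interval -1.15 to 0.19) did not pass the test (edgeR adjusted p = 0.987, exact permutation p = 0.2, two-sided). It was negative in all 21 alternatives tried for this gene, from -0.63 to -0.24.

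Nmb, Cck and Adcyap1 did not pass the filter on low counts. Nmb, on chromosome 7 from 80902227 to 80905076, had 6 to 12 counts in βIgf1r and 8 to 18 in βIgf1rKD mice. Cck, on chromosome 9 from 121489824 to 121495694, had 10, 2, 6 and 2 counts in βIgf1r and 2, 3, 18 and 3 counts in βIgf1rKD mice, so that M149 alone was high. Adcyap1, on chromosome 17 from 93199017 to 93206537, had 7, 3, 2 and 6 counts in βIgf1r and 0, 0, 1 and 17 counts in βIgf1rKD mice, with M150 alone high. A count of 0 allows up to 3 counts, or 0.074 to 0.142 CPM depending on the library. Fitted without the filter their log2 fold changes were 0.16 (SE 0.41), 0.59 (SE 0.80) and -0.26 (SE 0.99).

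Of the 8 genes 5 were tested in the fit across all genes. Among the 4 tested genes other than Gal, 0 passed 0.05 by edgeR, DESeq2 or limma-voom, before or after adjustment. Over all 15474 genes edgeR gave 637, or 4.12%, below 0.05 before adjustment and 0, or 0%, after it. DESeq2 gave 8 genes and limma-voom 1 gene at an adjusted p under 0.05.

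**Figure D4:**
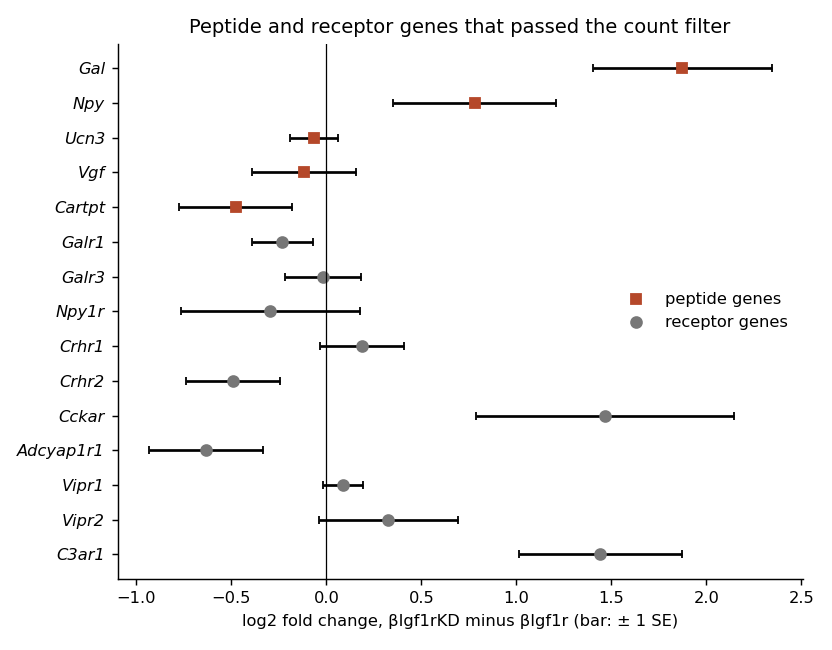
Log2 fold change, βIgf1rKD minus βIgf1r, of the 5 peptide genes and 10 receptor genes that passed the count filter, with bars of 1 SE. Gal, at 1.87, was chosen for this difference, and Cckar at 1.47 and C3ar1 at 1.44 are the receptor genes farthest from 0.

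Of 19 receptor genes for these peptides and their close relatives, 10 had enough counts. By edgeR 1 of the 10 was below 0.05 before adjustment, where 4.12% of all genes were, and 0 after it. With 5 genes higher and 5 lower, the median log2 fold change was 0.04, against 0.01 over all genes tested. For galanin, Galr1 and Galr3 were the receptors detected. Galr1 was at 17.2 ± 3.71 CPM in βIgf1r and 14.6 ± 2.06 CPM in βIgf1rKD islets (SD, n = 4 each), a log2 fold change of -0.23 (SE 0.16; 95% interval -0.59 to 0.13). Galr3 was at 16.9 ± 3.67 CPM and 16.7 ± 4.07 CPM (SD, n = 4 each), a log2 fold change of -0.02 (SE 0.20; 95% interval -0.46 to 0.43). Neither passed the test (edgeR adjusted p = 0.987 and 0.9996). Galr2 had 1 or 2 counts in each βIgf1r mouse and 0 or 1 in each βIgf1rKD mouse, too few to compare.

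Among neuropeptide Y receptors, Npy1r was the 1 gene past the filter, with 4 to 35 counts and a log2 fold change of -0.30 (SE 0.47). Npy2r and Npy4r had at most 3 counts in a mouse, and Npy5r and Npy6r had 0 in all 8. For the urocortins, Crhr1 and Crhr2 had log2 fold changes of 0.19 (SE 0.22) and -0.49 (SE 0.25). Crhr2, the receptor of urocortin 3 on δ-cells, was at 1.12 ± 0.179 CPM in βIgf1r and 0.791 ± 0.149 CPM in βIgf1rKD islets (SD, n = 4 each; edgeR adjusted p = 0.987), while Sst, the main transcript of those cells, had a log2 fold change of -0.25 (SE 0.22). The PACAP receptor gene Adcyap1r1 was at 4.31, 3.57, 3.10 and 3.22 CPM in βIgf1r and at 1.59, 1.36, 2.57 and 3.58 CPM in βIgf1rKD mice. Only M150 of the βIgf1rKD group reached the range of the controls, and the log2 fold change of -0.63 (SE 0.30) did not pass (edgeR adjusted p = 0.987). Without M150 the log2 fold change of Adcyap1r1 was -0.95, with an unadjusted p of 0.00709 by edgeR. In that fit 854 of 15688 genes were below 0.05 before adjustment and 0 after it. M150 was the mouse that reached the controls, so leaving it out favors a difference and that p is no test. With all 8 mice the unadjusted p of Adcyap1r1 was 0.0416 by limma-voom and 0.0497 by edgeR without a filter on low counts. Adjusting for the endothelial score gave a log2 fold change of -0.095. Vipr1 and Vipr2, which bind VIP and PACAP, had log2 fold changes of 0.09 (SE 0.11) and 0.33 (SE 0.37).

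Cckar, the cholecystokinin A receptor through which acinar cells secrete enzymes, spread widely. It was at 11.3, 15.7, 57.8 and 40.7 CPM in βIgf1r and at 110.6, 15.6, 156.8 and 63.4 CPM in βIgf1rKD mice. Its order over the mice was close to that of the acinar share, which was 1.92%, 3.17%, 13.7% and 7.95% in βIgf1r and 13.6%, 3.96%, 16.4% and 10.5% in βIgf1rKD mice. The log2 fold changes of all 12 acinar markers were positive, between 0.74 and 1.14, where 8086 of 15474 genes tested were above 0. None of the 12 had an unadjusted p under 0.05. The log2 fold change of Cckar was 1.47 (SE 0.68; edgeR adjusted p = 0.987), and the part of acinar RNA in it was not tested. Cckbr, the gastrin receptor, had at most 15 counts, and the bombesin receptors Nmbr, Grpr and Brs3 at most 11, 27 and 2.

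C3ar1, a complement receptor that also binds the VGF peptide TLQP-21, was the receptor gene with an unadjusted p under 0.05. Levels were 1.04, 1.67, 1.03 and 0.948 CPM in βIgf1r and 2.29, 1.54, 6.31 and 2.69 CPM in βIgf1rKD mice, so that M146 and M151 overlapped. Its log2 fold change was 1.44 (SE 0.43), with an unadjusted p of 0.00773 by edgeR and an adjusted p of 0.987. The unadjusted call was lost when the acinar score, the endothelial score, or Xist and the acinar score together were covariates, with log2 fold changes of 1.14, 1.62 and 1.36 and an unadjusted p of 0.0636, 0.0655 and 0.0516. Of 6 immune markers 5 were tested: Lyz2, Cd68 and Adgre1, genes of macrophages and related cells, had log2 fold changes of 1.185, 0.98 and 0.45, and Ptprc, expressed by all leukocytes, and Cd79a, of B cells, had -0.49 and -0.52, none with an unadjusted p under 0.05. Lyz2, Cd68 and Adgre1 were each highest in M149. The 6 immune markers summed to 31.4 to 95.7 CPM in βIgf1r and 34.2 to 126.4 CPM in βIgf1rKD mice. Without M149 the log2 fold change was 0.89, and the part of immune cells was not tested.

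Other peptide genes were taken from a list of 58, of which 17 had enough counts and 12 had 0 counts in every mouse. By sign of the log2 fold change, 5 of these 17 were higher and 12 lower in βIgf1rKD islets, with a median of -0.16. Over all genes tested 47.7% were lower and the median was 0.008. Of the 17, 0 had an unadjusted p under 0.05 by edgeR. DESeq2 also gave 0 and limma-voom 1, which was Penk, where edgeR called 4.12%, DESeq2 4.53% and limma-voom 3.65% of all genes. The most abundant were Gcg, Iapp, Sst, Ppy and Pyy, with log2 fold changes of -0.14 (SE 0.45), -0.23 (SE 0.28), -0.25 (SE 0.22), -0.29 (SE 0.30) and -0.09 (SE 0.19). The groups overlapped for all 17, as for all but 2.22% of the genes tested.

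Genes of peptide processing, 9 in the list and all with enough counts, comprised the convertases and the enzymes that trim and amidate peptides such as galanin and neuropeptide Y. By edgeR 0 had an unadjusted p under 0.05, and DESeq2 and limma-voom gave 3 each, which were Cpe, Pam and Scg5, against 4.12%, 4.53% and 3.65% of all genes by the 3 tools. Pam, the amidating enzyme, was at 493.8 ± 7.93 CPM in βIgf1r and 429.4 ± 43.4 CPM in βIgf1rKD islets (SD, n = 4 each), and each βIgf1rKD mouse was below each βIgf1r mouse, as for 1.27% of all genes. Its log2 fold change was -0.20 (SE 0.11; edgeR adjusted p = 0.987). Cpe, the carboxypeptidase, and Scg5, a chaperone of the convertase PCSK2, had log2 fold changes of -0.27 (SE 0.18) and -0.21 (SE 0.11). The convertase genes Pcsk1 and Pcsk2 had -0.04 (SE 0.13) and -0.10 (SE 0.18), and Pcsk1n, whose product inhibits PCSK1, had 0.12 (SE 0.23).

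**Figure D5:**
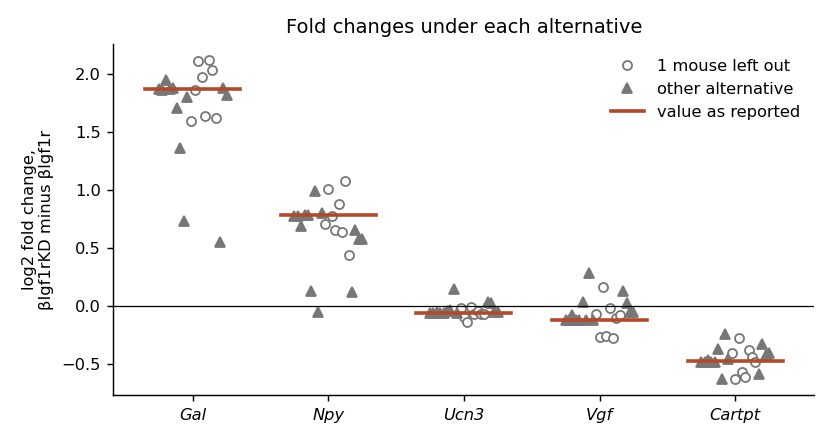
Log2 fold change, βIgf1rKD minus βIgf1r, of the 5 peptide genes that passed the filter, as reported (line), with 1 mouse left out (circles) and under the other alternatives (triangles). Gal is above 0 in every alternative, between 0.55 and 2.12, Cartpt is below 0 in every one, and Npy, Ucn3 and Vgf cross 0 in at least 1. Gal was chosen for this difference, so its steady sign is a description and no support.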

How the data were processed

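Polyadenylated RNA of islets from 8 mice was sequenced from stranded libraries. The authors deposited an estimated count per Ensembl gene and mouse, not normalized; the submitters' notes name fastp, kallisto and GRCm38, and give neither versions nor how transcripts were summed to genes. Counts were rounded. Of 53012 identifiers 51906 matched a symbol. Coordinates and lengths are those of GENCODE M21. The genes were filtered with edgeR 4.0.16, which kept 15474. A gene needed a total of 15 counts. It also needed, in 4 mice and before TMM scaling, the counts per library that equal 10 counts in a library of median size. Kept genes were scaled by TMM and compared by the quasi-likelihood test, in R 4.3.3. Benjamini-Hochberg adjustment was made over all genes tested. Log2 CPM used a prior count of 2. SEs come from the F statistic. Alternatives were RLE factors, DESeq2 1.42.0, limma-voom 3.58.1, other filters, a prior count of 0.5, covariates and each mouse left out. Permutation tests covered all 70 assignments (smallest p 0.0286). They took the difference between the group means of log2 CPM, which was 0.58 for Npy, and not the edgeR log2 fold change printed beside them. The scripts were tested on simulated counts. The members and lists were chosen with earlier results of these data known. The genes named are the 8 members, the receptor genes with enough counts, those of the other 2 lists with an unadjusted p under 0.05, without overlap or among the 5 most abundant, and the 5 most and least like Gal; other genes, and the motifs, were chosen after values were seen. Mice were not paired, since the groups share no number, and nothing says that they were from separate litters.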

Additional observations from a re-analysis of the deposited data

Results flagged for a closer look

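Among 34 sets of 4 mice looked at (the members and receptor genes with enough counts, Igf1r and Pam), 2 held a single mouse that stood apart, and 1.7 would do so by chance at 1 in 20. For Vipr1 this was βIgf1rKD mouse M149, with log2 CPM 5.76 where the remaining mice spanned 6.09 to 6.15, and its gap to them was 0.844 of the full range. For C3ar1 it was βIgf1r mouse M151, with log2 CPM 0.80 where the remaining mice spanned 0.03 to 0.15, and the gap was 0.842 of the full range.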

How the results depend on the processing

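The log2 fold change of Gal was positive in all 20 alternatives, 1.59 to 2.12 with 1 mouse left out, 0.73 with the endothelial score as covariate and 0.55 with Xist and the acinar score. Gal was chosen for this difference and its groups do not overlap, so a positive sign with 1 mouse left out was fixed beforehand. The steady sign of Gal is a description and no support for the difference. With the endothelial score Npy turned to -0.052, Ucn3 to 0.15, Vgf to 0.29 and Igf1r to 0.0264. With Xist Vgf turned to 0.0326 and Igf1r to 0.0232, and with Xist and the acinar score Ucn3 to 0.037 and Vgf to 0.12. Relative to pan-endocrine genes Ucn3 was at 0.0225, Vgf at 0.0217 and Igf1r at 0.000701. With 1 mouse left out Vgf ranged from -0.28 (without M146) to 0.16 (without M152). Cartpt kept its sign. The cause of these turns was not tested, and no adjusted p of Npy, Ucn3, Vgf or Cartpt was below 0.703. The 637 of 15474 genes below an unadjusted p of 0.05 became 1098 of 27738 without a filter. Of the same 15474 genes they became 1143 with Xist, 778 with Gcg, 439 with the endothelial and 395 with the acinar score. With Xist and the acinar score 483 were below 0.05, by DESeq2 701 and by limma-voom 565. With 1 mouse left out they were 383 of 15630 (without M148) to 1114 of 15714 (without M152). After adjustment DESeq2 gave 8 and limma-voom 1. The list counts that follow are to be read beside these numbers and are no results about the lists. The receptor count of 1 became 2 by limma-voom, 3 without a filter, 2 with Xist, 0 with the acinar score, the endothelial score or Xist and acinar score, and 1 to 4 with 1 mouse left out. The count of 0 other peptide genes became 1 by limma-voom, without a filter, and with the acinar or endothelial score, 3 with Xist, with Gcg or with Xist and acinar score, and 0 to 1 with 1 mouse left out. The count of 0 processing genes became 3 by DESeq2, 3 by limma-voom, 2 with Xist and 0 to 1 with 1 mouse left out. Nmb, Cck and Adcyap1 rest on few counts. No paired analysis was possible because the groups share no mouse number.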

Other observations

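The peptide genes Vip and Penk also differed among the βIgf1rKD mice, and they were chosen after their values were seen. Which cells gave their RNA was not tested. Vip, a peptide of parasympathetic neurons, was at 12.9, 16.9, 12.6 and 14.4 CPM in βIgf1r and at 6.83, 1.71, 3.05 and 20.3 CPM in βIgf1rKD mice, so that M150 was above and the other 3 below the controls. Its log2 fold change was -0.81 (SE 0.61, edgeR adjusted p = 0.987) and -1.89 without M150, with an unadjusted p of 0.00114 by edgeR. M150 was the mouse above the controls, so leaving it out favors a difference and that p is no test. In the fit without M150, 854 of 15688 genes were below 0.05 before adjustment and 0 after it. Penk, the enkephalin precursor gene, was at 2.90, 2.15, 3.06 and 2.70 CPM in βIgf1r and at 0.749, 0.857, 3.31 and 0.937 CPM in βIgf1rKD mice, where M149 was above and the other 3 below the controls. Its log2 fold change was -0.90 (SE 0.46, edgeR adjusted p = 0.987) and -1.66 without M149, with an unadjusted p of 6.54e-05 by edgeR. M149 was the mouse above the controls for Penk, so this p is likewise no test. In the fit without M149, 582 of 15661 genes were below 0.05 before adjustment and 0 after it. The exceptions were thus different mice for the 2 genes. For the 6 Schwann cell markers the log2 fold changes were all negative, from -0.77 up to -0.10, and by edgeR 0 of them were below 0.05 before adjustment, where 47.7% of all genes were negative and 4.12% below 0.05.

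For the markers of other cells, the median log2 fold change was 0.00 for 8 β-cell genes, 0.00 for 6 α-cell genes, -0.19 for the 4 δ-cell genes tested, -0.19 for the 2 PP-cell genes, 0.92 for 12 acinar genes, 0.99 for the 5 duct genes tested, -0.28 for 11 endothelial genes, 0.45 for the 5 immune genes tested and 0.43 for 6 fibroblast genes. Among the 8 β-cell genes Ins1, an insulin gene, stood apart from their median, at 31090 to 50370 CPM in βIgf1r and 19120 to 28540 CPM in βIgf1rKD mice without overlap. Its log2 fold change was -0.92 (SE 0.33), with an unadjusted p of 0.0204 by edgeR and an adjusted p of 0.987, while Ins2 was at -0.08 (SE 0.41). Over all genes tested 1.27% were lower without overlap and 4.12% had an unadjusted p under 0.05 by edgeR. Only the βIgf1rKD mice carried the driver named Ins1-CreERT2. Whether that allele alters Ins1 itself is not stated, so it and the loss of Igf1r cannot be told apart for Ins1. The 11 endothelial genes were all lower, where 47.7% of all genes were. Of the 11, 6 had an unadjusted p under 0.05 by edgeR, where 4.12% of all genes did. The groups did not overlap for 5 of them, where 1.27% of all genes were lower without overlap. No endothelial gene had an adjusted p under 0.05.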
